A study of Homo sapiens with 24 samples.

Results

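The regions examined were those of altered chromatin accessibility at 9 genes that set whether a B cell stays in the germinal centre or becomes a plasma cell: BCL6, PAX5, BACH2, EBF1, MEF2B, POU2F2, POU2AF1, PRDM1 and XBP1. A region belonged to a gene if it lay within 50 kb of one of the gene's transcription start sites (TSS) or overlapped the gene body. By this rule 73 of the 26369 distinct regions in the deposited lists belonged to the 9 genes. A region was called a promoter region if it came within 1 kb of a TSS and a distal region otherwise, which gave 6 promoter and 67 distal regions. The assay was ATAC-seq, in which a transposase cuts and tags the DNA it can reach, and the cells were VAL and OCI-LY3, both established human cell lines of diffuse large B-cell lymphoma. Cells of each line received 30 nM AZD4573, an inhibitor of CDK9, the kinase that releases paused RNA polymerase II into elongation, for 0, 3 or 8 h. Each of the 6 groups held 4 libraries, of which 2 were made by a standard protocol from 50000 cells and 2 by Fast-ATAC from 5000 cells, according to the labels. The study's methods instead describe only Fast-ATAC, on 50000 cells.

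Each list holds the coordinates of regions that the authors called increased or decreased at 3 h or 8 h against 0 h of the same line. The lists hold no value per library, so depth is unknown, no spread between libraries can be given for any region, and the protocols cannot be compared. A region missing from a list did not pass the authors' thresholds, which does not show that it was unchanged. The lists name the control DMSO, and the labels name it 0 h. Within a line, the 3 h and 8 h lists rest on 1 set of 0 h libraries. The series text gives OCI-LY3 as a germinal centre line and VAL as an activated B-cell line, whereas OCI-LY3 is generally classed as activated B-cell type, and no result here rests on the subtype. Cell identity could not be checked against marker levels, since the lists hold no levels.

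Germinal centre B cells depend on the repressor BCL6, which holds back differentiation while the cells divide and mutate their antibody genes. PAX5 and EBF1 maintain the B-cell programme, BACH2 restrains the plasma cell fate, and MEF2B, POU2F2 (also called OCT2) and its coactivator POU2AF1 (also called OBF1) activate genes that germinal centre cells need. PRDM1 (also called BLIMP1) silences this programme in plasma cells, and XBP1 drives the expansion of their secretory machinery. Several of these factors repress or activate one another.

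Sequence is shown for 1 region of each gene, taken as 200 bp at the region's midpoint, so that the DNA behind each result can be read. All are from the plus strand of GRCh37, written 5′ to 3′. Capitals mark an exact match, on either strand, to 1 of 8 short motifs of these factors, which are spelled out with their counts further on. BCL6 and POU2AF1 stand first because their regions were called decreased in all 4 comparisons.
BCL6 region window, chr3:187437351-187437550: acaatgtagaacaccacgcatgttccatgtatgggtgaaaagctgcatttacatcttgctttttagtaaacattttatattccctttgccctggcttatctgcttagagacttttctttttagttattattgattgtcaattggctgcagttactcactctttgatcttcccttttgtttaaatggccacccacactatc
POU2AF1 region window, chr11:111216898-111217097: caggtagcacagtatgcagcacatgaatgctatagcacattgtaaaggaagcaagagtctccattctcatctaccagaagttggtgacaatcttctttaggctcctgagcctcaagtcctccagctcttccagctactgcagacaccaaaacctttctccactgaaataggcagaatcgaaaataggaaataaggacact
The next windows come from intronic regions of BACH2, PAX5 and EBF1 that were called decreased in more than 1 comparison. In the PAX5 window the capitals mark an EBF1 motif, the only match in the 9 windows.
BACH2 region window, chr6:90908164-90908363: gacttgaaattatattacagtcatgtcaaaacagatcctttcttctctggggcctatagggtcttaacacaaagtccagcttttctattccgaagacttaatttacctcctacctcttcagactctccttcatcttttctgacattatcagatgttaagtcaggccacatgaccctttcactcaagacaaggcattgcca
PAX5 region window, chr9:36873361-36873560: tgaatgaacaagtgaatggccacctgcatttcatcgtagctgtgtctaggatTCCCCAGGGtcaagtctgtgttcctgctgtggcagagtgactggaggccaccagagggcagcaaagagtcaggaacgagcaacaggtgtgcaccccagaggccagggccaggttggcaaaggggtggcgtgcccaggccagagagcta
EBF1 region window, chr5:158325356-158325555: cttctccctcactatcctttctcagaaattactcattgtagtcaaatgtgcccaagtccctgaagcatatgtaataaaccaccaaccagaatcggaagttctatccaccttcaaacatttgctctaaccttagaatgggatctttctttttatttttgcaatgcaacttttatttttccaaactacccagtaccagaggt
The last windows come from promoter regions, of which those of MEF2B, POU2F2 and XBP1 were called increased and that of PRDM1 decreased.
MEF2B region window, chr19:19280687-19280886: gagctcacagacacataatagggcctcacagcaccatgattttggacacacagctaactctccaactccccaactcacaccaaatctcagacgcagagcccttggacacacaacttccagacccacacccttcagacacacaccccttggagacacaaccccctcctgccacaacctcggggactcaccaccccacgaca
POU2F2 region window, chr19:42636920-42637119: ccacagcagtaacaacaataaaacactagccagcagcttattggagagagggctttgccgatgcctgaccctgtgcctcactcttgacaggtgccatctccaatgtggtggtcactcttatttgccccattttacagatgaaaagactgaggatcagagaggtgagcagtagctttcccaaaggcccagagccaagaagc
XBP1 region window, chr22:29196249-29196448: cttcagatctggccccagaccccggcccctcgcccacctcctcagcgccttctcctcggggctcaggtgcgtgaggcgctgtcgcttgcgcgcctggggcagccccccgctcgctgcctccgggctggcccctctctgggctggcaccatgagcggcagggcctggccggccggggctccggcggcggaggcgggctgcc
PRDM1 region window, chr6:106440538-106440737: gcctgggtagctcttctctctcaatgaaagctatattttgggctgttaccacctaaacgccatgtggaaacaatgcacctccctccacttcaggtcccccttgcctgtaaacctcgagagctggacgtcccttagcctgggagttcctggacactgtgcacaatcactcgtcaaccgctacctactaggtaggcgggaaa

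The direction of the called regions differed between the genes. All 19 regions of MEF2B, POU2F2 and XBP1 were increased wherever they were called, and 45 of the 54 regions of the other 6 genes were decreased. BACH2 led the decreased side with 17 decreased and 2 increased regions, followed by POU2AF1 with 9 and 2, EBF1 with 8 and 1, PAX5 with 7 and 2, BCL6 with 2 and 1, and PRDM1 with 2 and 1. No region of the 9 genes was called in opposite directions, but 52 of the 73 were called only once and could not have been. Opposite calls were rare over all regions too, at 194 of 26369.

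**Figure D1:**
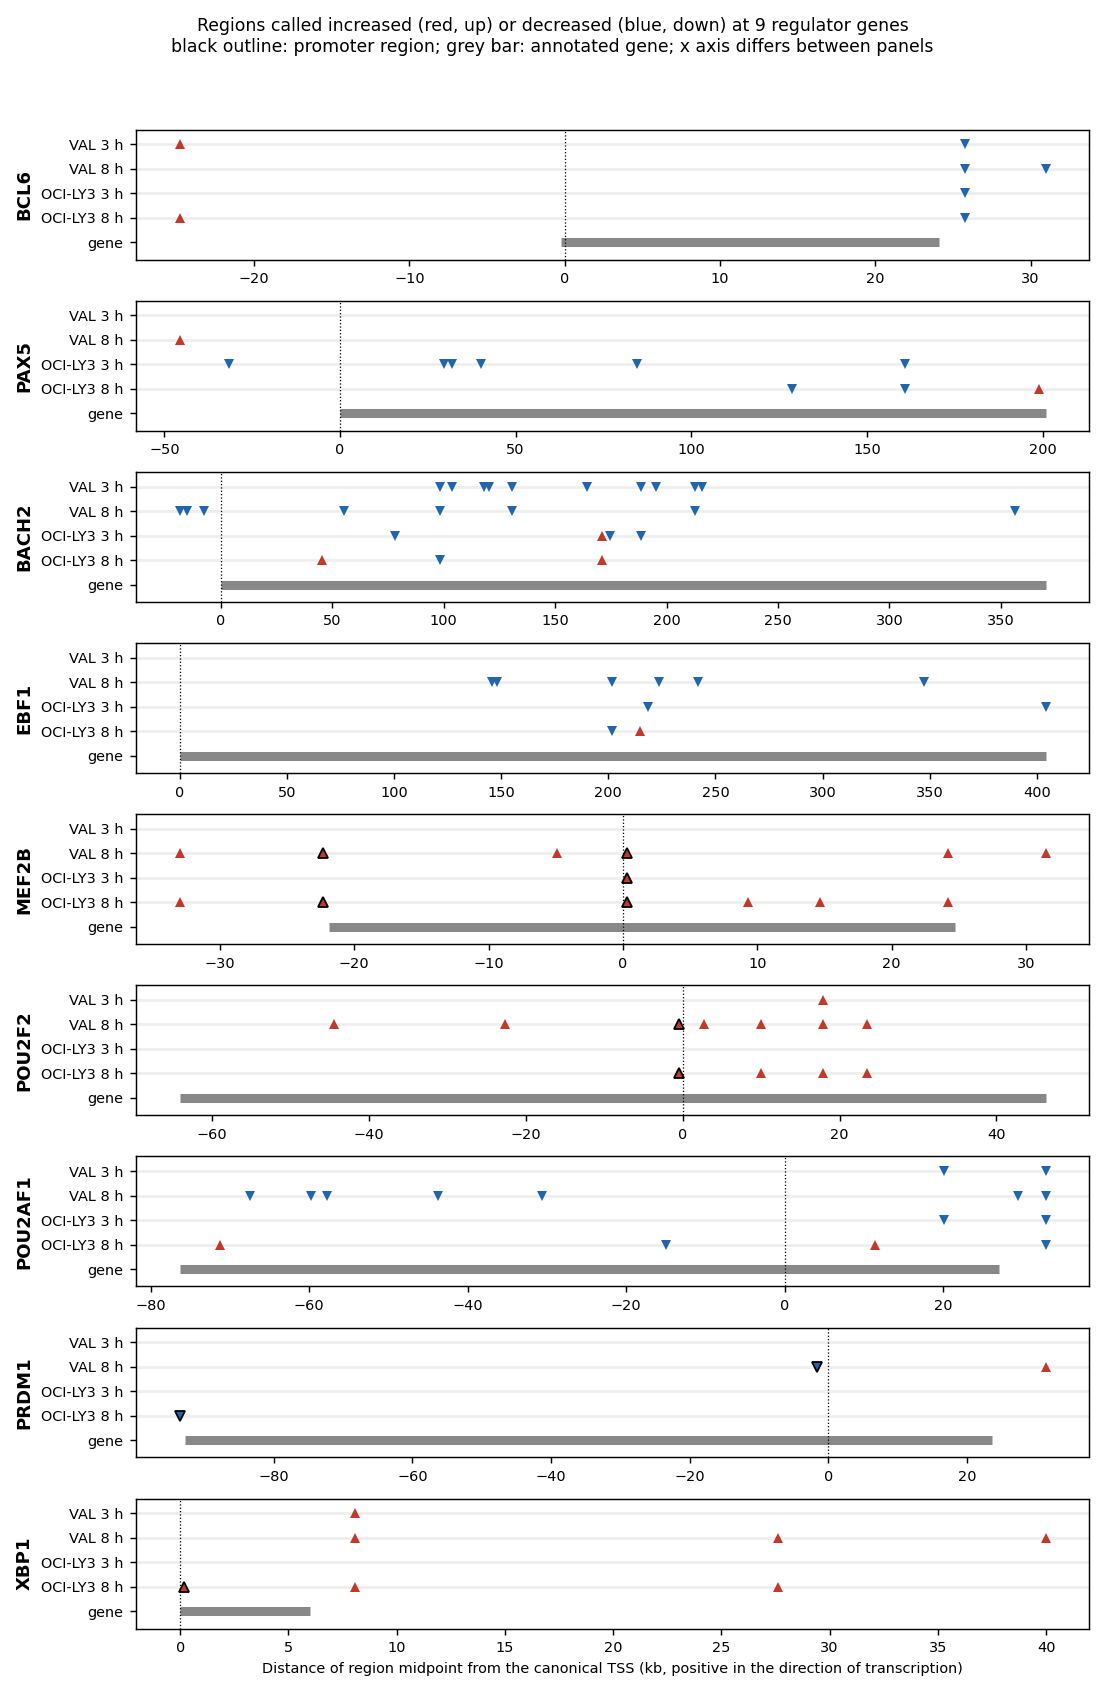
Called regions of each gene against distance from its canonical TSS in kb, with transcription running to the right, 1 row per comparison, red triangles for increased and blue for decreased regions, black outlines for promoter regions and a grey bar for the annotated gene. The 19 regions of MEF2B, POU2F2 and XBP1 are all red, and the 10 BACH2 regions decreased in VAL after 3 h form a run inside the gene; the x axis differs between genes.

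In VAL after 3 h, 3 regions of the 9 genes were increased and 13 decreased, so that 18.8% were increased (95% Wilson interval 6.59 to 43, over regions and for counting error only), beside 66.5% of all 5331 called regions. In VAL after 8 h, 18 were increased and 24 decreased, or 42.9% increased (29.1 to 57.8), beside 54.6% of all 20381 regions. In OCI-LY3 after 3 h, 2 were increased and 14 decreased, or 12.5% increased (3.5 to 36), beside 52.5% of all 3529 regions. In OCI-LY3 after 8 h, 20 were increased and 8 decreased, or 71.4% increased (52.9 to 84.7), beside 55.8% of all 7830 regions. The decreased regions thus outnumbered the increased at 3 h in both lines and in VAL after 8 h, and the increased outnumbered the decreased only in OCI-LY3 after 8 h. With the TSS of all transcripts in place of the basic ones, VAL after 8 h had 24 regions in each direction, and the increased regions in VAL after 3 h went from 3 to 7 (35%), as they did with a window of 100 kb. Where the nearest protein-coding TSS had to be that of 1 of the 9 genes, 11 increased regions were left in VAL after 8 h. Neighbouring regions along a gene are not independent of each other, and the intervals do not allow for that.

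The direction of called regions also differed between chromosomes. Of all called regions on chromosome 19, which carries MEF2B and POU2F2, between 97.2% and 99.6% were increased in the 4 comparisons. On chromosome 22, which carries XBP1, 99.2% were increased in VAL after 3 h, 99.6% in VAL after 8 h, 45.9% in OCI-LY3 after 3 h and 89.7% in OCI-LY3 after 8 h. Without these 3 genes the other 6 had 1 increased and 13 decreased regions in VAL after 3 h, 2 and 24 in VAL after 8 h, 1 and 14 in OCI-LY3 after 3 h, and 7 and 8 in OCI-LY3 after 8 h. The share of increased regions on the chromosomes of these 6 genes ran from 28.2% on chromosome 3 in VAL after 8 h to 66.7% on chromosome 11 in VAL after 3 h. The part of the chromosome in the direction at any gene was not tested.

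**Figure D2:**
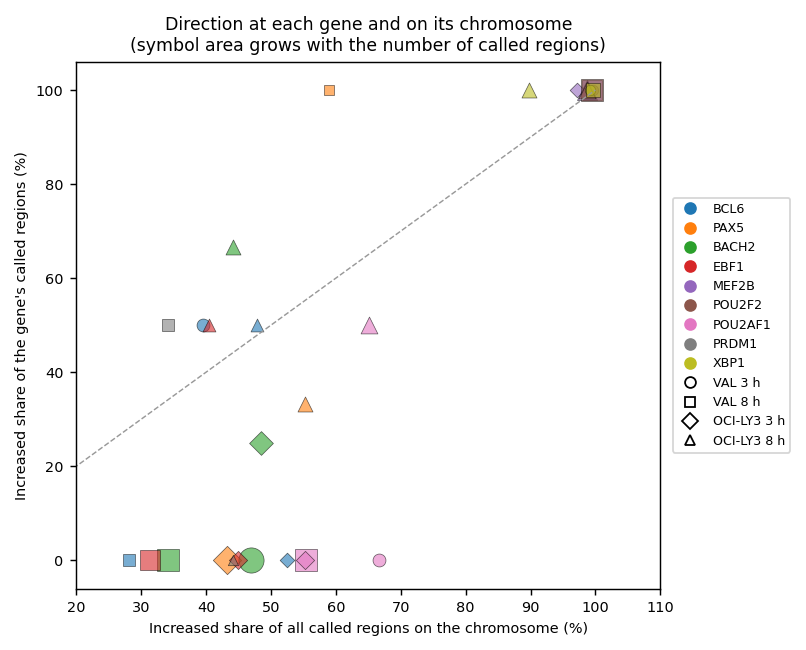
Increased share of each gene's called regions in % against the increased share of all called regions on its chromosome in %, with 1 symbol per gene and comparison, colour for the gene, shape for the comparison, area growing with the number of called regions and a dashed line where both shares are equal. The symbols of MEF2B, POU2F2 and XBP1 lie together at 100% of the gene's regions, partly over one another, and of the 20 symbols of the other genes 14 lie below the line.

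Counted by gene, 3 of the 9 had an increased region in VAL after 3 h, 5 in VAL after 8 h, 2 in OCI-LY3 after 3 h and 8 in OCI-LY3 after 8 h. Of all 20162 protein-coding genes, the same windows held an increased region at 27.0%, 48.3%, 19.7% and 31.1%, in that order. The counts in VAL at both times and in OCI-LY3 after 3 h thus lay near the share of all genes. A decreased region stood at 3, 5, 5 and 6 of the 9 genes, beside 8.13%, 21.3%, 9.99% and 13.8% of all protein-coding genes. A long gene has a wide window, which bears on these counts: the median window was 126.4 kb for the 9 genes and 100.5 kb for all protein-coding genes. The median hides the wide windows of EBF1 (454.0 kb), BACH2 (420.3 kb), PAX5 (251.0 kb) and PRDM1 (205.5 kb). Per length of window, the 9 genes held 38.3 called regions per Mb (73 in 1.9 Mb), against 11.6 per Mb over the windows of all protein-coding genes. Regions that were tested but not called are not listed, so how many of them each window held is unknown. The density ranged from 14.6 per Mb at PRDM1, a value that 45.1% of protein-coding genes reached, to 87.1 per Mb at POU2AF1, which 1.69% reached. EBF1's density was reached by 38.8% of genes and that of BCL6 by 27.4%.

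**Figure D3:**
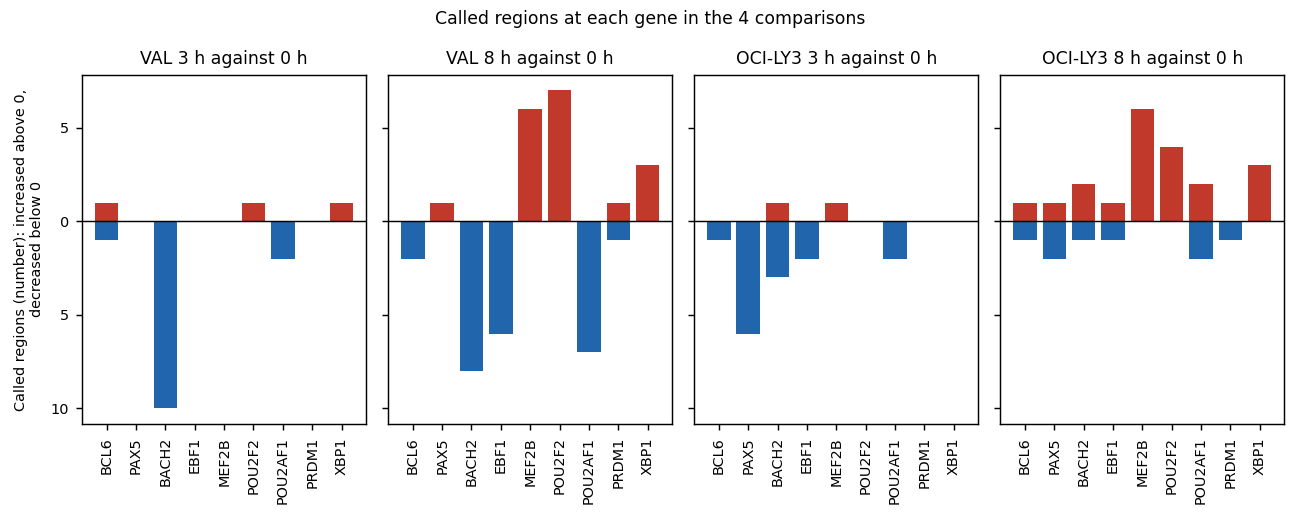
Number of regions called increased (red bars above 0) and decreased (blue bars below 0) at each of the 9 genes, 1 panel per comparison with 0 h. BACH2 has the longest blue bar, 10 regions in VAL after 3 h, and the red bars of MEF2B and POU2F2 reach 6 and 7 regions in VAL after 8 h.

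Of the 73 regions 6 were promoter regions. In VAL none was called at 3 h, and at 8 h 3 were increased (2 at MEF2B and 1 at POU2F2) and 1 decreased (PRDM1). In OCI-LY3 1 was increased at 3 h (MEF2B), and at 8 h 4 were increased (2 at MEF2B, 1 at POU2F2 and 1 at XBP1) and 1 decreased (PRDM1). An increased promoter region was found at 10.3% of all protein-coding genes in VAL after 3 h, 25.1% in VAL after 8 h, 5.92% in OCI-LY3 after 3 h and 9.30% in OCI-LY3 after 8 h. Decreased promoter regions were rarer, at 0.322%, 3.38%, 0.694% and 1.28% of genes in that order. These are shares of genes, whereas the counts for the 9 genes are of regions. BCL6, PAX5, BACH2, EBF1 and POU2AF1 had no called promoter region in any comparison with the TSS of basic transcripts. This depended on the TSS set: with the TSS of all transcripts, 1 decreased region in VAL after 3 h and 3 in OCI-LY3 after 3 h counted as promoter regions, and the increased ones in VAL after 8 h rose from 3 to 5. Of the 67 distal regions, 35 lay within introns of the canonical transcript, 6 touched one of its exons, 10 lay elsewhere in the annotated gene, and 9 lay downstream and 7 upstream of the gene. For 62 of the 73 regions the nearest TSS of any protein-coding gene was that of the gene named, and the 11 exceptions were 3 at MEF2B, 2 each at POU2AF1 and XBP1, and 1 each at BCL6, PAX5, BACH2 and POU2F2.

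BCL6, the repressor that defines the germinal centre B cell (chr3:187439165-187463513, minus strand), had 3 called regions, all distal and outside the gene. The region at chr3:187436434-187438467, just past the gene's 3′ end and 14203 bp from the nearest TSS, was decreased in all 4 comparisons. Its neighbour at chr3:187431410-187433013 was decreased in VAL after 8 h only, and the nearest protein-coding TSS to it was that of RTP2. On the other side, 23964 bp upstream of the nearest TSS, chr3:187487477-187488557 was increased in VAL after 3 h and in OCI-LY3 after 8 h. The regions before and behind BCL6 thus moved in opposite directions in both of those comparisons.

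The motif matches in the region decreased in all 4 comparisons included 1 to the EBF1 and 1 to the BACH2 motif. These are shown with their surroundings, 60 bp of the plus strand of GRCh37, with the match in capitals. The stretches were chosen after the calls were seen, and the BACH2 motif was searched as TGANTCA with any base at N.
BCL6 region, EBF1 match, chr3:187437937-187437996: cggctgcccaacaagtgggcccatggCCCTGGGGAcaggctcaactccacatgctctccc
BCL6 region, BACH2 match, chr3:187438131-187438190: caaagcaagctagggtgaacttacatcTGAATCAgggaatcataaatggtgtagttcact

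PAX5, the factor that maintains B-cell identity (chr9:36833266-37034265, minus strand), had 9 called regions, 8 of them called only in OCI-LY3. Its 6 decreased regions in OCI-LY3 after 3 h were spread over 193.8 kb, and only 4 of the 20162 protein-coding genes had as many or more in that comparison (AFF3, AUTS2, CACNA1C and PAX5). The windows of the other 3 ran from 647.2 to 1245.2 kb, against 251.0 kb for PAX5. The region at chr9:36872880-36874040 in intron 8, whose window is printed above with its EBF1 motif, was decreased in OCI-LY3 after both 3 h and 8 h. The regions at chr9:37004047-37005425 in intron 4 and at chr9:37001623-37003225, which spans exon 5, were decreased at 3 h only. A further 2 lay in introns 5 and 6, and 1 lay 31038 bp upstream.

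At 8 h in OCI-LY3, PAX5 had a second decreased region in intron 7 and an increased one in exon 10, the last exon. In VAL no decreased region was called at PAX5, and the only call was an increased region at 8 h that lay 45072 bp upstream, where the TSS of ZCCHC7 was nearer. The increased share of the whole of chromosome 9 was 43.2% in OCI-LY3 after 3 h.

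BACH2, the repressor that delays plasma cell differentiation (chr6:90636247-91006562, minus strand), had the most called regions, 19, all of them distal. In VAL after 3 h 10 were decreased and 0 increased, and 1 other of the 20162 protein-coding genes had at least as many decreased regions (BCL2, with 13). The window of BCL2 was narrower than that of BACH2, at 261.9 kb. The 10 regions covered 10889 bp of a stretch of 119.0 kb, with a median gap of 8.9 kb, 8 of them in intron 4 and 2 in intron 5. In VAL after 8 h 8 regions were decreased, spread over 376.4 kb, a number that 61 protein-coding genes reached, BACH2 included as in all such counts. The increased share over the whole of chromosome 6 was 47% in VAL after 3 h and 34.2% after 8 h. The window of BACH2 is wide, 420.3 kb, and it held 45.2 called regions per Mb, a density that 12.5% of protein-coding genes reached.

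The BACH2 lists of VAL after 3 h and 8 h had 3 regions in common. Regions at chr6:90907609-90908917, chr6:90875476-90876584 and chr6:90793040-90794533 were decreased at both times. The remaining 7 of the 3 h regions were not called at 8 h. Of the remaining 5 of the 8 h regions, 3 lay 6341 to 17739 bp upstream of the gene, 1 in intron 3 and 1 in intron 7. Both comparisons used the same 0 h libraries.

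In OCI-LY3, BACH2 had 3 decreased regions at 3 h and 1 at 8 h. The region 7491 bp downstream of the nearest TSS, chr6:90907609-90908917, was the one decreased at 8 h, so it was decreased in 3 of the 4 comparisons. The region at chr6:90817592-90818597 was decreased at 3 h in both lines. In the same intron, chr6:90834749-90835946 was increased in OCI-LY3 after 3 h and 8 h, and a region in intron 3 was increased at 8 h. These 2 were the only increased regions at BACH2.

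EBF1, which specifies the B lineage together with PAX5 (chr5:158122928-158526924, minus strand), had 9 called regions, all inside the gene or across its end and all distal. None was called in VAL after 3 h. In VAL after 8 h 6 were decreased, a number that 162 protein-coding genes reached, 5 of them in intron 6 and 1 in intron 10. The region at chr5:158324636-158326274 in intron 6 was also decreased in OCI-LY3 after 8 h and was the only one called in both lines. Of the others in that intron, chr5:158380304-158381694 and chr5:158378504-158379132 were neighbours and were decreased in VAL after 8 h only. In OCI-LY3 2 other regions were decreased at 3 h, in intron 6 and in exon 16, and 1 in intron 6 was increased at 8 h. EBF1 is the longest of the 9 genes and had 19.8 called regions per Mb. The increased share over the whole of chromosome 5 was 31.3% in VAL after 8 h.

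MEF2B, a factor often mutated in germinal centre lymphomas that activates BCL6 (chr19:19256376-19302940, minus strand), had 8 called regions, all increased. Its promoter region at chr19:19279844-19281729 covered the canonical TSS and was increased in VAL after 8 h and in OCI-LY3 after 3 h and 8 h. A second promoter region, chr19:19302487-19304335, was increased at 8 h in both lines, and it also covered TSS of BORCS8, RFXANK and the BORCS8-MEF2B read-through gene, so it cannot be assigned to MEF2B alone. Of the distal regions, chr19:19313347-19314851 and chr19:19256112-19257603, which spans exons 6 to 9, were increased at 8 h in both lines. The nearest TSS to them were those of NR2C2AP and TMEM161A. The region at chr19:19285762-19286215 was increased in VAL after 8 h only. With 6 increased regions at 8 h in each line, MEF2B was among 1594 protein-coding genes in VAL and 175 in OCI-LY3 with that number or more.

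POU2F2, the octamer-binding factor of B cells (chr19:42590262-42700737, minus strand), had 7 called regions, all increased. All 7 were increased in VAL after 8 h, and 4 of them also in OCI-LY3 after 8 h. Its promoter region, chr19:42636228-42637811, was among these 4. The region at chr19:42617878-42619614 in intron 5 was the only one increased already in VAL after 3 h, and none was called in OCI-LY3 after 3 h. The regions at chr19:42625567-42627619 and chr19:42612646-42613482 were increased at 8 h in both lines. As many increased regions or more stood at 1040 protein-coding genes in VAL after 8 h and at 833 in OCI-LY3 after 8 h. Over the whole of chromosome 19, which also carries MEF2B, 99.4% of called regions were increased in VAL after 8 h and 98.7% in OCI-LY3 after 8 h.

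POU2AF1, the coactivator that POU2F2 recruits in B cells (chr11:111222980-111326355, minus strand), had 11 called regions. Of these 9 were decreased, and none lay at its TSS. The region at chr11:111216032-111217963, 32037 bp downstream of the TSS and past the gene's end, was decreased in all 4 comparisons, as was the one behind BCL6. A region over exon 2, chr11:111229346-111230539, was decreased at 3 h in both lines and not called at 8 h in either. In VAL after 8 h 7 regions were decreased over 101.9 kb, a number that 105 protein-coding genes reached, and 5 of them lay 30044 to 66835 bp upstream of the TSS, within an annotated long form of the gene. In OCI-LY3 after 8 h 2 were decreased and 2 increased, among the latter chr11:111237907-111239332 in intron 1. Over the whole of chromosome 11, increased regions made up 66.7% in VAL after 3 h and 55.4% after 8 h.

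The POU2AF1 region decreased in all 4 comparisons held 1 exact match each to the MEF2B and BACH2 motifs. The same 60 bp stretches are given for it.
POU2AF1 region, MEF2B match, chr11:111216488-111216547: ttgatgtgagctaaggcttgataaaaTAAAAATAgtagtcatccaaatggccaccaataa
POU2AF1 region, BACH2 match, chr11:111217468-111217527: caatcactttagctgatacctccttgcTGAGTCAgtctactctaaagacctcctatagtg

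PRDM1, the master regulator of plasma cells (chr6:106441338-106557814, plus strand), had 3 called regions, none of them at 3 h. Both of its promoter regions were decreased, each in 1 line. In OCI-LY3 after 8 h the decreased region was chr6:106439810-106441465, which covers the most upstream TSS. In VAL after 8 h it was chr6:106531834-106533284, which lay 911 bp upstream of the nearest TSS and counted as distal when a promoter reached only 500 bp. The distal region at chr6:106565149-106566130, past the gene's 3′ end, was increased in VAL after 8 h.

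XBP1, the factor of the secretory programme (chr22:29190543-29196585, minus strand), had 4 called regions, all increased. Its promoter region at chr22:29195600-29197097, over exon 1, was increased in OCI-LY3 after 8 h only. The region at chr22:29187893-29188956, 7165 bp downstream of the nearest TSS and past the gene's end, was increased in VAL after 3 h and 8 h and in OCI-LY3 after 8 h. The regions at chr22:29168250-29169568 and chr22:29156092-29156978 lay nearer to CCDC117, the first at its TSS. The former was increased at 8 h in both lines and the latter in VAL after 8 h only. XBP1 had no called region in OCI-LY3 after 3 h, the one comparison in which increased regions were not the majority on chromosome 22.

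VAL and OCI-LY3 have separate 0 h libraries, so calls in both lines do not share a control. At 3 h 4 regions of the 9 genes were called in the same direction in both lines, which is 25% of the 16 called in VAL and 25% of the 16 in OCI-LY3, beside 18.9% and 28.5% over all regions. Those 4 were the regions behind BCL6 and POU2AF1, the POU2AF1 exon 2 region and the BACH2 region in intron 4, all decreased. At 8 h 14 were shared, which is 33.3% of the 42 in VAL and 50% of the 28 in OCI-LY3, beside 16.8% and 43.7% over all regions. Of these, 7 at MEF2B, POU2F2 and XBP1 were increased at 8 h only. A further 2 at POU2F2 and XBP1 were increased also in VAL after 3 h, and 1 at MEF2B also in OCI-LY3 after 3 h. The other shared regions were decreased. On chromosomes 19 and 22 at least 89.7% of all called regions were increased at 8 h in either line. Over both times, 34 of the 73 regions were called only in VAL, 22 only in OCI-LY3 and 17 (23.3%) in both, beside 17134, 5136 and 4099 (15.5%) of all 26369 regions. Of those 17, MEF2B and POU2F2 held 4 each and XBP1 2. The other 6 genes, with 54 of the 73 regions, held the rest. A single call was the most common case, at 52 regions (71.2%, beside 70.7% of all regions), and 2 regions (2.74%, beside 2.95%) were called in all 4 comparisons.

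The DNA of the regions also differed by gene. The GC content of the 28 increased regions had a median of 55.4% and that of the 45 decreased regions of 44.1%. Over all called regions the medians were 56.2% for increased and 41.4% for decreased regions. The median was lowest at BACH2 (41%) and EBF1 (41.1%) and highest at MEF2B (57.6%) and POU2F2 (56%). The 9 increased regions that lay outside chromosomes 19 and 22 had a median of 45.2%, closer to the decreased regions of the 9 genes than to all increased regions. PAX5 was an exception among the genes with mostly decreased regions, with a median of 54.2%. The median width was 1386 bp for increased and 1321 bp for decreased regions, beside 1320 and 1300 bp over all regions.

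**Figure D4:**
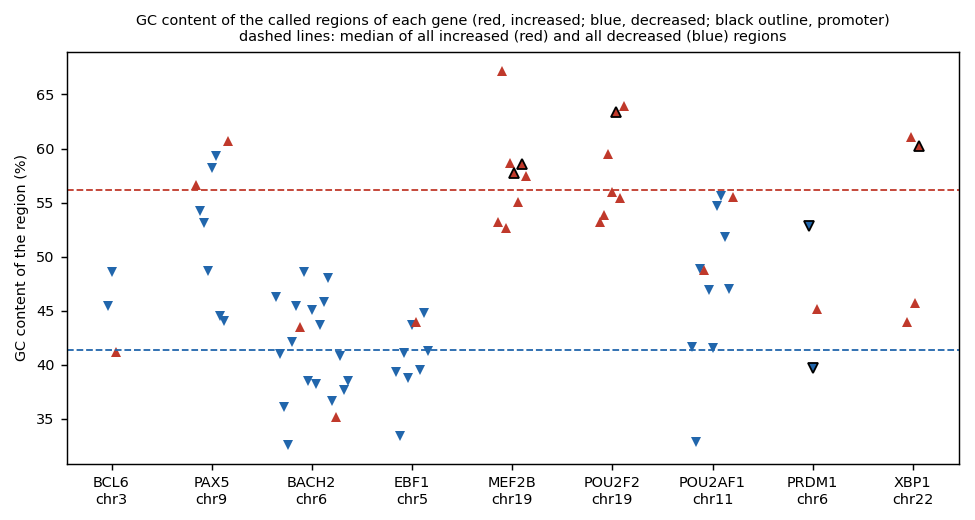
GC content of each called region in %, by gene with its chromosome, with red triangles for increased, blue for decreased and black outlines for promoter regions, and dashed lines at the medians of all increased (56.2%) and all decreased (41.4%) regions. BACH2 and EBF1 regions lie below 50% whichever their direction, and the MEF2B and POU2F2 regions all lie above 50%.

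Matches to the factors' own motifs were counted without mismatch on both strands in 200 bp at each region's midpoint. An N in a motif was matched by any base, which makes the BACH2 and EBF1 motifs looser. The octamer ATTTGCAT bound by POU2F2 was found in 4 of the 45 decreased regions (8.89%), at PAX5, BACH2, EBF1 and POU2AF1, beside 3.86% of all decreased regions. The EBF1 motif TCCCNNGGG was found in 3 (6.67%, beside 2.61%), of which 2 lay at POU2AF1 and 1 at PAX5. The BACH2 motif TGANTCA, which also takes in the AP-1 motif, was found in 4 (8.89%, beside 7.78%), and the MEF2B motif TAAAAATA in 1 (2.22%, beside 5.42%). Among the 28 increased regions the POU2F2, EBF1 and MEF2B motifs were found in 1 each (3.57%), beside 1.76%, 7.17% and 3.12% of all increased regions, and the BACH2 motif in 0, beside 4.16%. The motifs of BCL6 (TTCCTAGAA), PRDM1 (GAAAGTGAA), PAX5 (GCGTGAC) and XBP1 (TGACGTGG) were found in none of the 73 windows, and were present in 0.284%, 1.38%, 0.497% and 0.158% of all decreased regions and in 0.178%, 0.334%, 1.25% and 0.437% of all increased ones. At such counts 1 region moves a share by several percentage points.

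Over whole regions, the BACH2 motif was found in 23 of the 45 decreased regions (51.1%, beside 37.4% of all decreased regions), 8 at BACH2 itself, 5 at EBF1, 4 at POU2AF1, 3 at PAX5, 2 at BCL6 and 1 at PRDM1. The MEF2B motif was found in 22.2% of them, below the 34.3% of all decreased regions, and the PRDM1 motif in 11.1%, beside 5.64%. For the other motifs these shares were 20% beside 16.1% (POU2F2), 15.6% beside 13.7% (EBF1), 4.44% beside 1.94% (BCL6), 2.22% beside 2.78% (PAX5) and 2.22% beside 1.14% (XBP1). Among whole increased regions the PAX5 motif was found in 17.9%, beside 7.73% of all increased regions, POU2F2 in 17.9% beside 8.63%, BACH2 in 28.6% beside 24.4%, EBF1 in 28.6% beside 35.2% and MEF2B in 10.7% beside 21.1%. BCL6 and XBP1 motifs were each found in 3.57%, beside 1.11% and 2.51%, and the PRDM1 motif in 0 regions, beside 1.85%. A match describes letters in the sequence and not binding by the factor.

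The wider programmes were examined through 3 lists of other genes, each read against the share of all protein-coding genes with such a region. For VAL after 3 h, VAL after 8 h, OCI-LY3 after 3 h and OCI-LY3 after 8 h, in this order throughout, that share was 8.13%, 21.3%, 9.99% and 13.8% for a decreased region and 27.0%, 48.3%, 19.7% and 31.1% for an increased one. Of 20 germinal centre genes, 3, 11, 2 and 5 had a decreased region and 7, 10, 5 and 11 an increased one. MEF2C, a relative of MEF2B on chromosome 5, had 1 and 8 decreased regions in VAL, 1 of the latter at its promoter, and 2 and 1 increased ones in OCI-LY3. S1PR2, the receptor that confines cells to the germinal centre, lies on chromosome 19 and had 7, 8, 0 and 8 increased regions and none decreased.

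Of 18 plasma cell and secretory genes, 6, 6, 7 and 6 had a decreased region and 3, 10, 3 and 8 an increased one. The increased counts lay near or below the shares of all genes in the first 3 comparisons. None of the 18 genes lies on chromosome 19 or 22. EDEM1, which takes part in the disposal of misfolded proteins, had 1, 5, 1 and 1 decreased regions and none increased, and HERPUD1, of the same process, had 1, 5, 0 and 3 increased ones and none decreased. HSPA5, the chaperone also called BiP and named here after its values were seen, had no called region.

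Of 14 B-cell identity genes, 8, 12, 7 and 12 had an increased region and 2, 3, 4 and 3 a decreased one. The 3 with a decreased region in VAL after 8 h match the share of all genes. On the 9 of them outside chromosomes 19 and 22 the counts were 5, 7, 4 and 7 increased and 2, 3, 4 and 3 decreased. CD72, a coreceptor of B cells on chromosome 9, had 1, 1, 3 and 8 increased regions, and CD37 on chromosome 19 had 4, 6, 2 and 6, with none decreased at either gene. Others in the list had decreased regions and are named after their values were seen: CD74, the invariant chain of antigen presentation, had 3, 1, 2 and 2 decreased regions against 1, 1, 0 and 0 increased ones, and MS4A1, which encodes CD20, had 1 decreased region in each comparison and 1 increased region at each time in OCI-LY3.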

How the data were processed

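ATAC-seq was carried out on 24 libraries of VAL and OCI-LY3 cells. According to the methods and the submitters' processing notes, Bowtie2 alignments to hg19 without duplicates were given to MACS2 by the authors sample by sample, the peaks were united with bedtools, and DESeq2 was run by the authors on the reads in these peaks, treated against 0 h cells of each line. The study states the adjusted p-value threshold in different ways. The deposited files are 8 lists of region coordinates in bp, increased or decreased in 1 of 4 comparisons, with 0 columns of per-sample values. A read shift for the transposase, and whether the protocol entered the model, are not given in the sources used here. Library depth is unknown.

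Regions with equal coordinates were taken as the same region. They were assigned to genes by overlap of at least 1 bp with 50 kb on either side of the TSS of transcripts tagged basic, or with the gene body, in GENCODE v44 lifted to GRCh37, the build of the files. Coordinates are 1-based. All 9 genes, each promoter region and, per gene, up to 3 distal regions called in the most comparisons, then nearest to a TSS, were described. Python 3.11.15, numpy 2.4.6, scipy 1.17.1 and pysam 0.24.0 were used, and the scripts were tested on simulated data. No test was run, since single libraries have no values in the lists. Alternatives were other windows, promoter sizes and TSS sets, midpoints, nearest genes, merged neighbours, leaving out chromosomes 19 and 22, and whole regions for motifs. The genes, lists and motifs were chosen with earlier results of these data known. A further stretch of sequence is not reported here.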

Additional observations from a re-analysis of the deposited data

How the results depend on the processing

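Of 124 values recomputed under other settings, 104 stayed within 1.5 times the reported count or within the interval of the reported share. The rule for shares is loose because the intervals are wide. In VAL after 3 h, increased shares of 7.14% and 35% both counted as unchanged beside the reported 18.8%. The 104 are therefore no measure of how stable the shares are. Leaving out the genes on chromosomes 19 and 22 brought the increased regions down to 1 in VAL after 3 h, 2 in VAL after 8 h, 1 in OCI-LY3 after 3 h and 7 in OCI-LY3 after 8 h, and the increased share to 7.69% in VAL after 8 h and 46.7% in OCI-LY3 after 8 h, since the increased regions of those genes were no longer counted. Decreased regions then outnumbered increased ones in OCI-LY3 after 8 h too, 8 to 7, the 1 comparison in which the majority turned under that setting. The increased regions in VAL after 3 h numbered 7 with a window of 100 kb and 7 with the TSS of all transcripts, which also gave 24 increased and 24 decreased regions in VAL after 8 h. Counting a region only where the nearest protein-coding TSS was that of 1 of the 9 genes left 11 increased regions in VAL after 8 h. With the TSS of all transcripts, decreased promoter regions numbered 1 in VAL and 3 in OCI-LY3 after 3 h and increased ones 5 in VAL after 8 h, and with promoters of 500 bp the decreased one in VAL after 8 h was lost. The 7 other values that moved were motif shares over whole regions, which are longer than 200 bp.

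No paired analysis was possible because the lists give coordinates and no measurement of single libraries. For the same reason no leave-one-out values exist. The lists show which regions passed the authors' thresholds and not by how much, and with few regions a gene the shares are coarse.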
